A study of Homo sapiens with 4 samples.

Results

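The SOXB group is a family of transcription factor genes, and it is described here with a pair of long noncoding RNAs whose genes lie at the same loci. The members were taken by name from the gene column of the deposited table: the SOXB1 genes SOX1, SOX2 and SOX3, the SOXB2 genes SOX14 and SOX21, and the noncoding genes SOX21-AS1 and SOX2-OT. All 7 were present among 17472 listed genes. The members were selected with the MEK5DD and WT levels of these libraries in view and are in that sense chosen by those measured values, so the members' own levels and fold changes are a description, with no test.

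Poly(A) RNA was sequenced from H1, a widely used human embryonic stem cell line, grown in E8, a defined medium with FGF2 and TGF-beta. There were 2 MEK5DD libraries and 2 WT libraries. MEK5DD cells carry MAP2K5 (MEK5, the kinase directly upstream of ERK5) with residues changed to aspartate. It was introduced by lentivirus, followed by puromycin selection, and 1 such line is described in the labels. WT cells are unmodified H1 cells, and no group received virus and puromycin without MEK5DD, so delivery, selection and the line itself cannot be told apart from MEK5DD in any comparison. Whether the libraries of a group came from separate cultures is not stated, so the spread behind each p-value may be technical.

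Every SOX protein binds DNA through an HMG box. SOXB1 proteins mostly activate their targets: with POU factors they maintain pluripotency, and in the early nervous system they keep progenitors undifferentiated. SOXB2 proteins carry a closely related HMG box and act mainly as repressors, and in the chick neural tube SOX21 counteracts SOXB1 proteins.

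The members occupy 5 places in the genome (GRCh38, GENCODE release 29). SOX2 is a gene of 1 exon on chromosome 3 (181711924 to 181714436, plus strand) and lies wholly inside an intron of SOX2-OT (180989762 to 181836880, same strand), with 0 shared exon bases. SOX14 also has 1 exon and lies on chromosome 3 (137764284 to 137766338), 43.95 Mb from SOX2. SOX21 (chromosome 13, 94709622 to 94712399, minus strand) and SOX21-AS1 (94712716 to 94716246, plus strand) run in opposite directions with 316 bases between them. SOX1 is on chromosome 13 (112067647 to 112070488), 17.36 Mb from SOX21, and SOX3 is on chromosome X (140502985 to 140505116, minus strand). The deposited counts do not say whether strand was used, but no member shares more than 13 exon bases with another listed gene.

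The coding sequence shared by the family is shown because it limits how well reads can be assigned to 1 gene. These 90 bases, from GENCODE transcripts and 5' to 3' on the coding strand, are the 90-base stretch of SOX2 with the best matches, summed over the other coding members. Capitals mark bases that differ from SOX2.
SOX2: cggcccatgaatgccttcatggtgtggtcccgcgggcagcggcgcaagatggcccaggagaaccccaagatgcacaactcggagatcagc
SOX1: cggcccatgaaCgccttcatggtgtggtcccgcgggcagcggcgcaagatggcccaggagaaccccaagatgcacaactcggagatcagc
SOX3: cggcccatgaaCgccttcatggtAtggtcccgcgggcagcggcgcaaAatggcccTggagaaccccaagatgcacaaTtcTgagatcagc
SOX14: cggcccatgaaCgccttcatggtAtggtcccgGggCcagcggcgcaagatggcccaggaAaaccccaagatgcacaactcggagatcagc
SOX21: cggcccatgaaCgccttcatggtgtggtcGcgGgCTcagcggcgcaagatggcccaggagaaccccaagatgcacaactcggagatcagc

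SOX1 differed from SOX2 at 1 of these bases (98.9% identity), SOX14 and SOX21 at 5 each (94.4%) and SOX3 at 6 (93.3%). The longest identical stretch between whole transcripts was 89 bases for SOX1 and SOX2, and 60 bases for SOX21 with either of them. Every other pair shared 32 bases or fewer. A read that falls wholly inside such a stretch cannot be assigned by its own sequence, and the sources used here give no read length.

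The start regions of SOX21, SOX3, SOX2 and SOX1 are shown because these genes differ in how far their levels moved while SOX21 and SOX21-AS1 start next to each other. Each is the RefSeq window of GRCh38.p14, 250 bases before to 50 after the start, 5' to 3' along the gene: SOX21 at chr13:94712496-94712795 (minus strand), SOX3 at chrX:140505020-140505319 (minus strand), SOX2 at chr3:181711675-181711974 and SOX1 at chr13:112066899-112067198 (both plus strand). Capitals mark matches on either strand to CCAAT, to TATAAA, or to a SOX core, which is spelled ACAAAG and in its other form ACAATG.
SOX21: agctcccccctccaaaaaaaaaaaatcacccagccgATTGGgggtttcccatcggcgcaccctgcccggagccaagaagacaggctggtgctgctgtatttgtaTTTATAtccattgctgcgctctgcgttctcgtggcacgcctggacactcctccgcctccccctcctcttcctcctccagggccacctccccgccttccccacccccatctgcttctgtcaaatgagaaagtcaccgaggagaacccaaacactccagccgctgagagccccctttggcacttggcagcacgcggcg
SOX3: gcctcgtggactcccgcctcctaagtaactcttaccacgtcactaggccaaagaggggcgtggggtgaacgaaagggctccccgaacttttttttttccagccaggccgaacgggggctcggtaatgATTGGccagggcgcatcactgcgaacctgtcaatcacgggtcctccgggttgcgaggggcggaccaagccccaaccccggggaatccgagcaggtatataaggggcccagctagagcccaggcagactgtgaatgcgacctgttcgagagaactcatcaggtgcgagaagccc
SOX2: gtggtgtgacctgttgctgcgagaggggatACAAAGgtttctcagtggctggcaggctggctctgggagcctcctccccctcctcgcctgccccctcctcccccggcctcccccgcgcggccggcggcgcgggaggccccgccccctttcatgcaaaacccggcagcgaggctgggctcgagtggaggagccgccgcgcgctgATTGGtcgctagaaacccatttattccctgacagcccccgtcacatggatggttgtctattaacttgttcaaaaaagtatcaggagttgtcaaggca
SOX1: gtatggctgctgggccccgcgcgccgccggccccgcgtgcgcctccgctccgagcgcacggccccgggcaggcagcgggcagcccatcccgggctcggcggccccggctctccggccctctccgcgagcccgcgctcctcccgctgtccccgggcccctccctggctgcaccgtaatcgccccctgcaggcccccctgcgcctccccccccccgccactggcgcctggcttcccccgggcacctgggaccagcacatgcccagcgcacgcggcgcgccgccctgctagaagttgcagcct

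The windows of SOX21 and SOX21-AS1 overlapped by 270 of 300 bases, and the RefSeq starts of the pair were 171 bases apart. RefSeq and GENCODE place the starts of SOX1 and SOX21 differently. The windows of these genes lie wholly upstream of the GENCODE genes, so their motif and base content describe the RefSeq starts only. The SOX21 window held 1 TATAAA match, on the opposite strand, and in the SOX21-AS1 window the same letters began 30 bases before the SOX21-AS1 start. CCAAT matched once in the windows of SOX21, SOX3 and SOX2 and the SOX core once in that of SOX2, while the SOX1 window had 0 matches to any of these motifs. Over all 35116 windows of this length, 34.6% held CCAAT, 11.5% held TATAAA and 24.5% held a SOX core. A match describes letters only. Exact spellings alone were counted, so a near spelling such as tataag in the SOX3 window is not marked. The SOX1 window was 80.0% G or C, against a median of 58.7% over all windows. Promoter entries were found for 6 of the 7 members, all but SOX14.

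The introduced gene was measured first. MAP2K5 had normalised read counts of 3382 and 3558 in MEK5DD cells, against 344 and 315 in WT cells. Its log2 fold change was 3.40 (SE 0.08; adjusted p = 5.91e-11, limma with Benjamini-Hochberg adjustment, the test used throughout). A normalised read count is the authors' gene count after scaling for library size, and folds were taken on the log2(value + 1) scale, which understates changes of low genes. Recovered reads ranged from 15756339 to 17539654 per MEK5DD library and from 14908486 to 17628945 per WT library. Of 15721 genes tested, 2226 passed an adjusted p of 0.05, which is 14.2%, with 7.69% higher and 6.47% lower in MEK5DD. These counts moved with each library left out: omitting MEK5DD replicate 1 gave 1979 higher and 1764 lower, omitting MEK5DD replicate 2 gave 2383 higher and 2246 lower, omitting WT replicate 1 gave 668 higher and 528 lower, and omitting WT replicate 2 gave 678 higher and 482 lower. All 8 pluripotent stem cell markers checked were listed, and their summed count was 140530 and 133670 in MEK5DD cells and 139920 and 137930 in WT cells. The MEK5DD pair differed more than the WT pair, with a chi-square per degree of freedom of 5.77 within MEK5DD and 1.84 within WT. With 2 against 2 libraries an exact permutation test of a single gene cannot go below p = 0.333, so calls rest on the spread pooled across genes.

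Among the SOXB1 genes, SOX2 stayed close to its WT level while SOX3 and SOX1 were much lower in MEK5DD cells. SOX2, the partner of POU5F1 in the pluripotency network, had counts of 4029.9 and 3942 in MEK5DD cells, against 4643 and 4515 in WT cells. Its log2 fold change was -0.20 (SE 0.06), or 1.15-fold lower. The groups did not overlap, and the fold between them was small beside those of the other coding members. In bulk RNA, fewer cells with a transcript and less of it per cell cannot be told apart, for this and every member.

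SOX3, an X-linked gene of neural progenitors and the developing pituitary, had counts of 216 and 211 in MEK5DD cells, against 519 and 551 in WT cells. Libraries of 1 group agreed within 1.06-fold, and both MEK5DD libraries lay below both WT libraries. The log2 fold change was -1.32 (SE 0.10), or 2.49-fold lower.

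SOX1, one of the first genes switched on in neuroectoderm, was the scarcest coding member. It had counts of 8.18 and 11.96 in MEK5DD cells, against 49.3 and 65.6 in WT cells. These rest on 9 and 12 recovered reads in MEK5DD cells and 56 and 63 in WT cells. The exact 95% Poisson intervals of the reads were 4.12 to 17.1 and 6.20 to 21.0 in MEK5DD, below those of 42.3 to 72.7 and 48.4 to 80.6 in WT. These intervals cover counting error only. The log2 fold change was -2.41 (SE 0.32). As a ratio of pooled reads scaled for library size, MEK5DD had 0.176 of the WT level (95% interval 0.105 to 0.281, counting error only). It passed the filter on low values (at least 10 in at least 2 libraries) through its WT libraries, which were the only pair both above 10. SOX1 shares the 89-base identical stretch with the far more abundant SOX2, and the part of such reads in the SOX1 count was not tested.

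Among the SOXB2 genes, SOX21, a repressor that opposes SOXB1 proteins in chick neural tissue, had counts of 64.5 and 73.8 in MEK5DD cells, against 342 and 335 in WT cells. Its log2 fold change was -2.28 (SE 0.14), or 4.85-fold lower. SOX14, which marks interneurons in the vertebrate brain and spinal cord, had counts of 79.1 and 65.8 in MEK5DD cells, against 329 and 319 in WT cells. Its log2 fold change was -2.15 (SE 0.14), or 4.44-fold lower. The WT libraries agreed within 1.03-fold for both genes, and every MEK5DD library lay far below every WT library. Across the 4 pairs of 1 MEK5DD and 1 WT library, the ratio ran from 0.189 to 0.220 for SOX21 and from 0.200 to 0.248 for SOX14.

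The noncoding neighbours did not share 1 pattern. SOX21-AS1, the long noncoding RNA that starts beside SOX21, had counts of 54.5 and 59.8 in MEK5DD cells, against 178 and 172 in WT cells. Its log2 fold change was -1.60 (SE 0.16), or 3.03-fold lower. SOX2-OT, the long noncoding RNA whose intron holds SOX2, had counts of 40.9 and 51.8 in MEK5DD cells, against 32.6 and 49.99 in WT cells. Its groups overlapped, its log2 fold change was 0.18 (SE 0.27), and it was the 1 member that was not lower. The WT libraries of SOX2-OT differed 1.53-fold from each other, more than those of any other member, although SOX1 had a larger SE (0.32). The log2 fold change of SOX2-OT was -0.12 without WT replicate 1 and 0.49 without WT replicate 2.

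**Figure D1:**
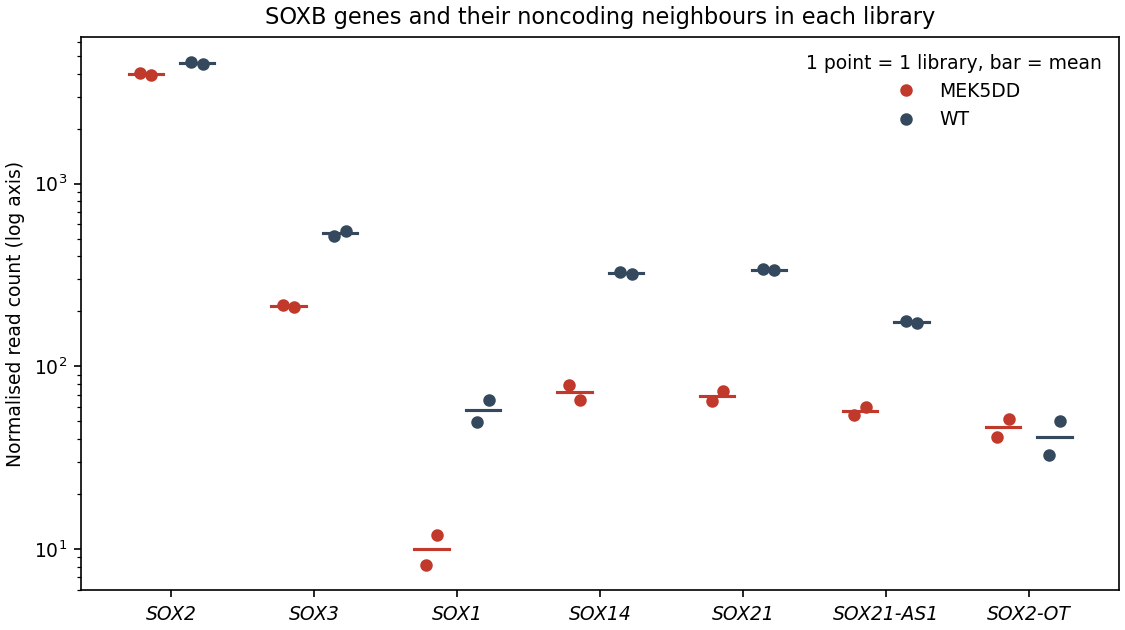
Normalised read counts (log axis) of the SOXB genes and their noncoding neighbours; each point is 1 library (red MEK5DD, dark WT) and each bar a mean of 2. SOX3, SOX1, SOX14, SOX21 and SOX21-AS1 were clearly lower in MEK5DD, SOX2 was slightly lower, with 4029.9 and 3942 against 4643 and 4515, and the SOX2-OT points overlap.

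In 6 of 7 members both MEK5DD values lay below both WT values, as they did in 28.0% of all tested genes (28.2% had both MEK5DD values above), and limma called those 6 lower, against 6.47% of all tested genes. Nothing is read from these counts, because this contrast was in view when the members were chosen. SOX1 had no call where a mean of at least 50 was required, since it was not tested there. SOX2 was tested but not called under 4 alternatives: the other 5 were called without the mean-variance trend, with DESeq2, without WT replicate 1 and without WT replicate 2. In order of log2 fold change from the most negative of 15721 tested genes, SOX1 stood at 10, SOX21 at 12, SOX14 at 15, SOX21-AS1 at 52, SOX3 at 108 and SOX2 at 3525. Only 20 tested genes had a log2 fold change of -2 or below. The median over the 7 members was -1.60, and over all tested genes it was -0.0023.

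**Figure D2:**
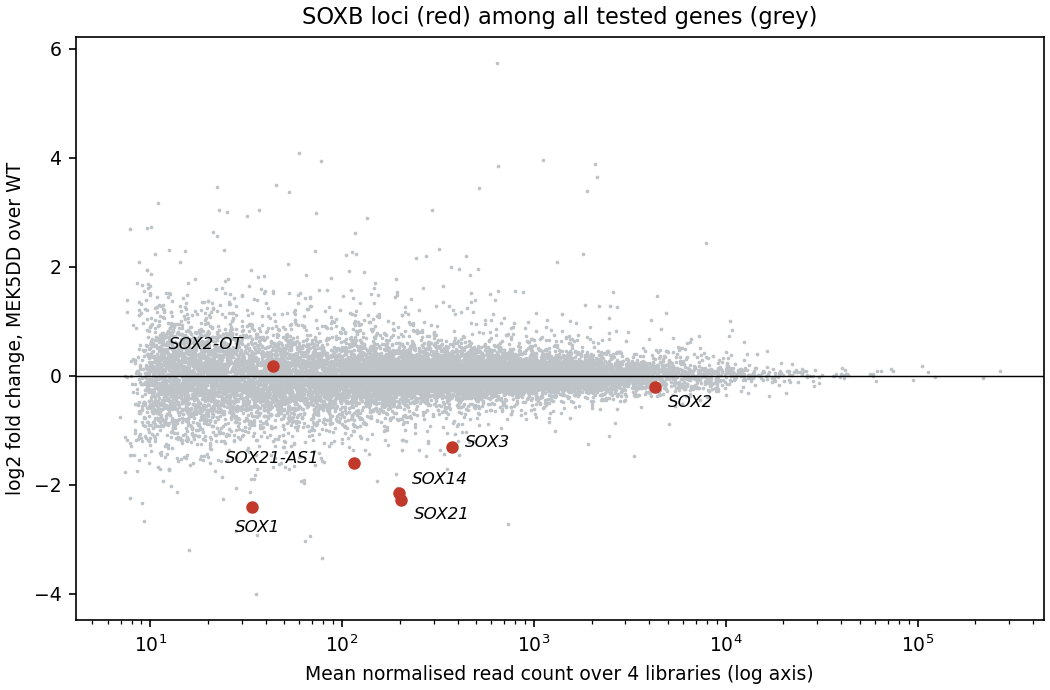
log2 fold change (MEK5DD over WT) against the mean normalised read count (log axis) of each tested gene, in grey, with the SOXB loci in red. SOX1, SOX21 and SOX14 lie among the most negative fold changes, SOX2 lies just below 0 at a high count, and SOX2-OT lies within the cloud.

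Levels of different genes were compared as normalised count per kilobase of exon. In MEK5DD cells the levels per kilobase were 1586 ± 24.7 for SOX2, 100.3 ± 1.62 for SOX3, 35.2 ± 4.57 for SOX14, 24.9 ± 2.35 for SOX21, 17.4 ± 1.13 for SOX21-AS1 and 3.54 ± 0.940 for SOX1 (SD, n = 2). In WT cells they were 1822 ± 36.1 for SOX2, 251 ± 10.7 for SOX3, 157.5 ± 3.39 for SOX14, 122 ± 1.63 for SOX21, 53.2 ± 1.31 for SOX21-AS1 and 20.2 ± 4.05 for SOX1 (SD, n = 2). SOX2-OT came last, at 1.47 in MEK5DD cells and 1.31 in WT cells, over an exon union of 31.6 kb drawn from many isoforms, of which any 1 transcript uses only a part. The order was the same in both groups, and no neighbouring pair in it overlapped between libraries of a group.

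The coding members together had a lower normalised count per kilobase in MEK5DD cells, and a larger part of it was SOX2. The SOXB sum per kilobase was 1770 and 1730 in MEK5DD libraries, against 2391 and 2354 in WT libraries. SOX2 made up 90.6% of that sum in each MEK5DD library and 77.3% and 76.3% in the WT libraries. The SOXB2 pair summed to 61.7 and 58.6 per kilobase in MEK5DD cells, against 282.9 and 275.8 in WT cells. SOX1 and SOX3 summed to 104 and 103 per kilobase in MEK5DD cells, against 261 and 281.5 in WT cells. Per kilobase, SOX2 exceeded SOX3 by 15.8-fold in both MEK5DD libraries and by 7.59-fold and 6.95-fold in the WT libraries.

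**Figure D3:**
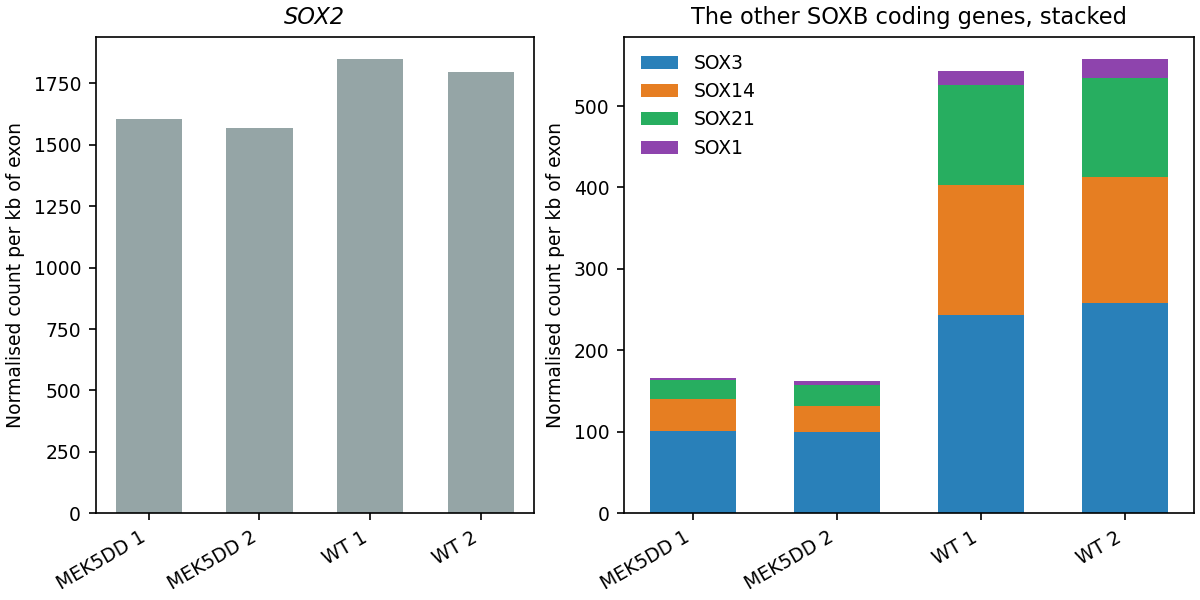
Normalised count per kilobase of exon in each library for SOX2 (left) and for SOX3, SOX14, SOX21 and SOX1 stacked (right); the 2 panels have different axes, both from 0. The SOX2 bars are slightly shorter in MEK5DD, while the stacked bars of the other genes are far shorter, with SOX14 and SOX21 summing to 61.7 and 58.6 in MEK5DD and 282.9 and 275.8 in WT.

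Within the shared loci, SOX21 and SOX21-AS1 were both lower in MEK5DD cells, and SOX21 by more. The ratio of SOX21 to SOX21-AS1 per kilobase was 1.40 and 1.46 in MEK5DD cells, against 2.27 and 2.31 in WT cells. The SOX2-OT count was 1.01% and 1.31% of the SOX2 count in MEK5DD cells, against 0.702% and 1.11% in WT cells, with the groups overlapping. SOX14 and SOX21, on different chromosomes, had a ratio per kilobase of 1.66 and 1.21 in MEK5DD cells, against 1.30 and 1.28 in WT cells, with the groups overlapping.

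Among SOX genes outside group B, the tested ones had log2 fold changes between -0.83 and 0.45. Of 14 such genes 10 were listed and tested, of which 1 rose and 1 fell, 20.0% called against 14.2% of all genes, with a median log2 fold change of 0.03. SOX4, a SOXC gene of progenitor cells, rose (log2 fold change 0.35, SE 0.06, adjusted p = 0.00337 from limma), with counts of 7290.2 and 6807 in MEK5DD cells, against 5730.4 and 5325 in WT cells. SOX9, a SOXE gene of neural crest, cartilage and glia, fell (-0.54, SE 0.15, adjusted p = 0.0366 from limma), with counts of 154 and 134 in MEK5DD cells, against 181 and 240 in WT cells. The other 8 ranged from -0.83 (SOX7, which had only 9 to 24 recovered reads per library) to 0.45 (SOX18) and did not pass. Without WT replicate 2 neither SOX4 (adjusted p = 0.128) nor SOX9 (adjusted p = 0.394) was called, while 4 of the 10 were called without MEK5DD replicate 1 and 5 without MEK5DD replicate 2. Without the mean-variance trend 0 were called.

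**Figure D4:**
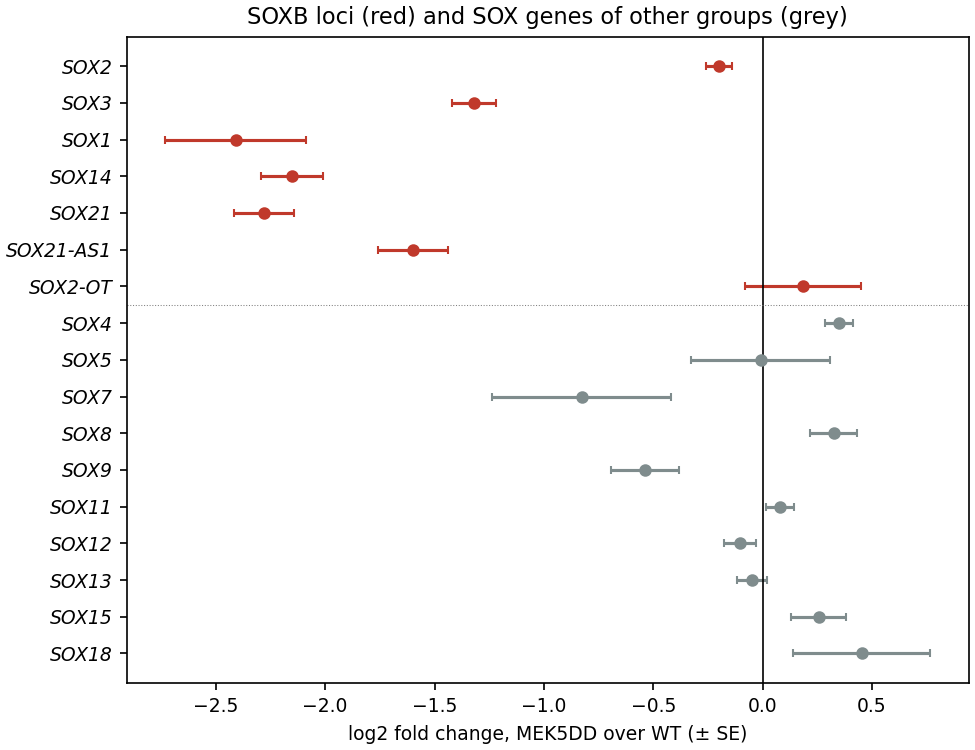
log2 fold change, MEK5DD over WT, with its SE, for the SOXB loci (red) and the tested SOX genes of other groups (grey). SOX3, SOX1, SOX14, SOX21 and SOX21-AS1 lie between -1.32 and -2.41, whereas the SOX genes of other groups lie between -0.83 and 0.45. SOX2 (-0.20) and SOX2-OT (0.18) lie within the range of those other groups.

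Genes of factors that act together with SOXB proteins were mixed. This list was chosen with earlier results of these data known, so its counts are a description. Of 9 such genes 6 were tested, of which NANOG rose and POU3F1, CHD7 and POU2F1 fell, 66.7% called against 14.2% of all genes (7.69% higher and 6.47% lower). POU3F1, a POU factor of epiblast and early neural cells, had counts of 84.5 and 96.7 in MEK5DD cells, against 143 and 167 in WT cells (log2 fold change -0.76, SE 0.16, adjusted p = 0.00683 from limma). CHD7, a chromatin remodeller that binds SOX2 in neural stem cells, fell (-0.35, SE 0.06, adjusted p = 0.00249 from limma), and POU2F1, a broadly expressed octamer-binding factor, fell (-0.26, SE 0.08, adjusted p = 0.0479 from limma). NANOG, a core pluripotency factor, rose (0.26, SE 0.06, adjusted p = 0.0117 from limma). POU5F1, the main partner of SOX2 in stem cells, had counts of 42386 and 38116 in MEK5DD cells, against 39714.5 and 38568 in WT cells (log2 fold change 0.04, SE 0.06, adjusted p = 0.752 from limma). POU5F1 shares 8.6% of its exon bases with TCF19 on the other strand. The 4 calls were reduced to 2 without WT replicate 1 (POU3F1 and CHD7) and to 0 without WT replicate 2 or without the mean-variance trend, and leaving out MEK5DD replicate 2 put POU5F1 among the genes that rose (0.12, adjusted p = 0.0062 from limma).

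Genes with a known composite SOX and POU element, several of them established in mouse cells, were higher or near their WT level. Of 7 genes 6 were tested, and 5 rose and 0 fell, against 7.69% of all genes called higher. Their median log2 fold change was 0.45. These counts too are a description, since earlier results of these data were known when the list was chosen. NANOG and POU5F1 are also in the list of factors above and NES in that of neural genes below, so the counts are not separate. LEFTY1, an inhibitor of NODAL, rose (1.21, SE 0.11, adjusted p = 2.51e-05 from limma), with counts of 350 and 355 in MEK5DD cells, against 148 and 155 in WT cells; its reads may be shared with the near-identical LEFTY2. FGF4, a growth factor of pluripotent cells, rose (0.90, SE 0.12, adjusted p = 0.00054 from limma), with counts of 264 and 246 in MEK5DD cells, against 133 and 139.6 in WT cells. UTF1, a chromatin factor of pluripotent cells, rose by 0.56, NES, which encodes a filament protein of neural progenitors, by 0.35 and NANOG by 0.26 on the log2 scale. FBXO15 was below the filter. NES and NANOG were not called without WT replicate 1 (adjusted p = 0.0738 and 0.167), NANOG also not without WT replicate 2 (adjusted p = 0.262), and LEFTY1 and FGF4 were the 2 calls left without the mean-variance trend.

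Among regional and proneural genes of early neural tissue, more fell than rose. Earlier results of these data were known when this list was chosen as well, so its counts are a description. Of 25 genes 14 were listed and 13 tested, of which 7 fell and 1 rose (NES), against 6.47% of all genes called lower and 7.69% higher, with a median log2 fold change of -0.40. Every listed gene had reads in each library, so a gene without reads in any library may not be listed. SIX6 and SIX3, homeobox genes of the forebrain and eye, fell by 2.72 (SE 0.09) and 1.21 (SE 0.11) on the log2 scale, with adjusted p = 2.06e-09 and 1.84e-05 from limma. SIX6 had counts of 199 and 186 in MEK5DD cells, against 1272 and 1282 in WT cells. LHX5, a homeobox gene of the anterior neural plate, rested on 4 and 3 recovered reads in MEK5DD cells, against 73 and 69 in WT cells, a ratio of 0.0491 (95% interval 0.0194 to 0.104, counting error only). MAP2, a neuronal microtubule protein gene, had counts of 9.09 and 14.95 in MEK5DD cells, against 53.7 and 55.2 in WT cells. LHX5 and MAP2 passed the filter on low values only through their WT libraries, so their calls add no support to the count of 7. With no filter all 14 listed genes were tested and the same 7 were called lower, and where a mean of at least 50 over the libraries was required, 4 of 7 tested were called lower and 1 higher. NEUROG3, a proneural gene, had a log2 fold change of -1.61, and OTX2, a homeobox gene of epiblast and anterior brain, fell by 0.85. The tested genes of this list that did not pass went both ways. TUBB3, FABP7 and DCX had log2 fold changes of 0.62, 0.78 and 0.19, and HESX1 and NCAM1 had -0.40 and -0.02. TUBB3 had counts of 39.1 and 42.9 in MEK5DD cells, against 26.4 and 26.0 in WT cells. PAX6, below the filter, was at 6.36 and 5.98 in MEK5DD cells, against 1.76 and 3.12 in WT cells. SIX6, SIX3, NEUROG3 and OTX2 were called lower in each of the 4 fits that left out 1 library, and NEUROG3 was not called without the mean-variance trend (adjusted p = 0.0756). Of 7 neural progenitor markers 3 were listed, at a summed count of 78.1 and 101 in MEK5DD cells, against 76.6 and 65.6 in WT cells. Markers of other cells were summed without a test: the 3 fibroblast markers listed of 6 summed to 2956 and 2750 in MEK5DD cells, against 1642 and 1631 in WT cells, and the 4 mesendoderm markers listed of 6 to 223 and 270.1 in MEK5DD cells, against 146 and 139 in WT cells. The 2 neural crest markers listed of 4 summed to 1432 and 1322 in MEK5DD cells, against 1789.8 and 1852 in WT cells. COL3A1, DCN, LUM, SOX10 and TFAP2B were not analysed here. The part of such cells in the member levels was not tested.

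The genes around the SOXB loci showed no common direction. Within 1 Mb of a member 45 other genes were listed and 36 tested, of which 2 rose and 4 fell, 16.7% called against 14.2% of all genes, with a median log2 fold change of 0.0031. Near SOX1, ATP11A, a phospholipid flippase gene 619.8 kb away, fell (-0.61, SE 0.07, adjusted p = 0.000146 from limma), and MCF2L, a guanine nucleotide exchange factor gene 823.9 kb away, fell (-0.38, SE 0.10, adjusted p = 0.0242 from limma). Near SOX14, DZIP1L, a gene of primary cilia 295.7 kb away, fell by 0.75 on the log2 scale. Near SOX21, GPC6, a glypican gene 302.2 kb away, rose by 0.35 and DNAJC3, a chaperone gene, by 0.36, while DZIP1 fell by 0.36 on the log2 scale. Of the 5 tested genes near SOX1 2 fell and 0 rose, 40.0% called against 14.2% of all genes. Their median log2 fold change was -0.25. The closest of them, TUBGCP3, 414.5 kb away, had -0.25 and did not pass (adjusted p = 0.0647 from limma). GPR180 and TGDS, the closest tested genes to SOX21, had log2 fold changes of 0.09 and 0.0022 and did not pass. FXR1 and DNAJC19, beside SOX2-OT, had 0.15 and 0.0041 and did not pass. LINC01210, 5.6 kb from SOX14, was below the filter, at 0.909 and 6.98 in MEK5DD cells, against 12.3 and 7.29 in WT cells. ATP11A was the 1 neighbour called in each fit that left out 1 library; 2 neighbours were called without WT replicate 1 and with DESeq2, and 1 without WT replicate 2 and without the mean-variance trend, which there was DZIP1L. DZIP1 shares 18.4% of its exon bases with CLDN10 on the other strand.

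**Figure D5:**
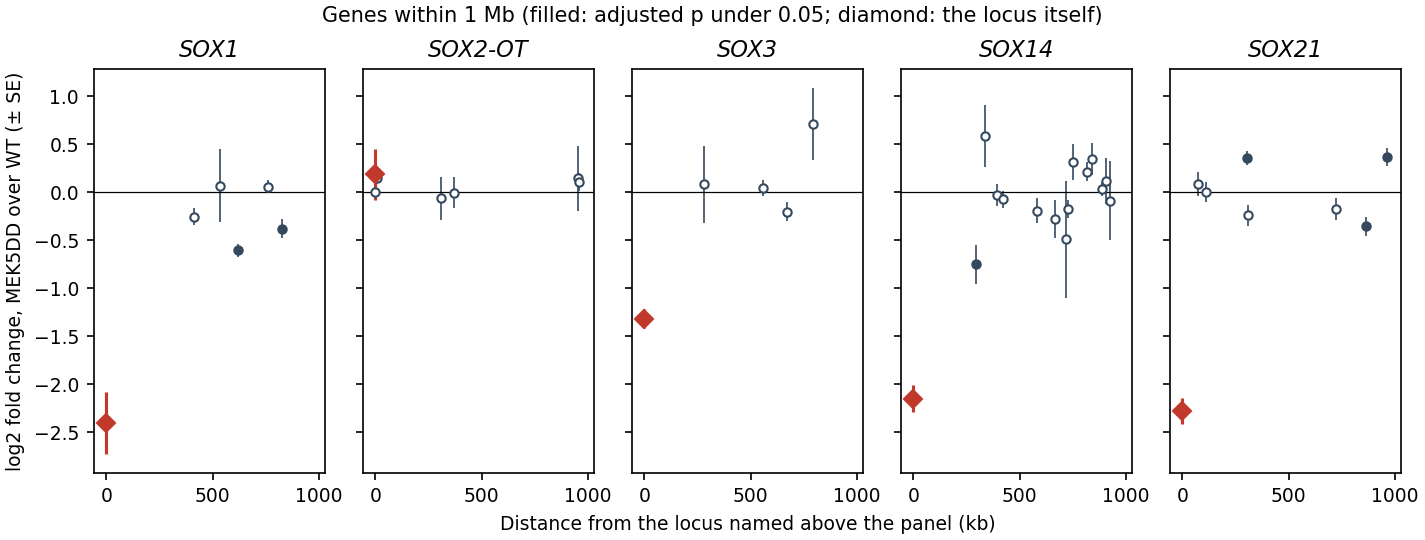
log2 fold change, MEK5DD over WT, with its SE, of tested genes within 1 Mb of 5 SOXB loci, against distance in kb; filled circles passed an adjusted p of 0.05 and the red diamond is the locus itself. Neighbours lie between -0.75 and 0.71, while SOX1, SOX3, SOX14 and SOX21 lie between -1.32 and -2.41 at distance 0. SOX2-OT, at 0.18, lies within the range of the neighbours.

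The genes whose pattern was most like a mean pattern of members were sought over the 4 libraries. The profile was the mean centred log2 count of the 5 members with a mean of at least 100, and likeness was Euclidean distance among 10433 other genes. The nearest were SFRP1, a secreted WNT antagonist (distance 0.0452), PTPRB, a receptor phosphatase of endothelium (0.090), which shares 7.2% of its exon bases with a gene on the other strand, the long noncoding RNA LINC01833 (0.186), ACADSB, an enzyme of branched-chain acid breakdown (0.198), and FEZ1, a transport adaptor of neurons (0.199). SFRP1 had counts of 1774 and 1737 in MEK5DD cells, against 4926 and 4811 in WT cells. By the same measure SOX21-AS1 lay at 0.131 from the profile, SOX3 at 0.205, SOX14 at 0.667, SOX21 at 0.781 and SOX2 at 1.31. SFRP1 and PTPRB lay closer to the profile than any member, so the nearest genes resemble this mean and not each member.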

How the data were processed

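Values were the authors' deposited signal, that is gene counts normalised by the authors, in 4 columns matched to samples by title. Per the submitters' processing notes, Trimmomatic 0.36, STAR, featureCounts 1.5.3, DESeq2 1.26.0 and hg38 were used, with no role or order given. The sources used here name neither the strand setting nor the read length or annotation. In each library 100% of values were whole multiples of the smallest value within 0.001, so reads were recovered by division. In MEK5DD replicate 2 that value (0.997) is too close to 1 for an automatic check, and recovery there rests on the largest departure, 6.86e-05. No listed gene was at 0 in any library. Genes at 0 in a library may therefore be missing, which limits the listed counts of every gene list and marker set. Annotation was GENCODE release 29 (GRCh38), which held 97.8% of symbols, and promoter windows were RefSeq's.

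Groups were compared with limma 3.58.1 (R 4.3.3), fitted with a mean-variance trend to log2(value + 1) of 15721 genes with at least 10 in at least 2 libraries, two-sided, Benjamini-Hochberg adjusted over all of them, threshold 0.05, no covariate. On simulated data for MEK5DD against WT, with 200 genes of mean at least 50 changed among 15742 tested, 86.6% of 1.5-fold and 100% of 2-fold and 4-fold changes were recovered, with 12 false calls among 203. The simulation gave both groups the same spread for each gene. In the data the MEK5DD pair differed more than the WT pair (chi-square per degree of freedom 5.77 and 1.84), so these rates may not carry over. The 14 alternatives changed the pseudocount, the filter, the scaling or the variance model, blocked on replicate number, left out each of 4 libraries, or used edgeR 4.0.16 (quasi-likelihood, 1248 genes higher and 1058 lower) or DESeq2 1.42.0 on recovered reads.

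Members and lists were chosen with earlier results of these data known. Named genes are the members, MAP2K5, POU5F1, up to 6 called genes per list with the largest change, and the 5 nearest profiles. GPR180, TGDS, TUBGCP3, FXR1, DNAJC19, LINC01210, SOX7, SOX18 and FBXO15 were added after their values were seen. So were TUBB3, FABP7, DCX, HESX1, NCAM1 and PAX6. Intervals of recovered reads cover counting error only.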

Additional observations from a re-analysis of the deposited data

How the results depend on the processing

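The members' median log2 fold change (-1.60) stayed within 1 replicate SD under all 14 alternatives. Of single members, SOX1 moved by more than that, to -2.05 with a pseudocount of 5, and SOX1 and SOX2-OT could not be fitted where a mean of 50 was required. Counts of calls moved more. Without the mean-variance trend 249 genes were higher and 190 lower, with 0 other SOX genes, 0 partner genes, 2 SOX-POU target genes, 5 neural lineage genes and 1 neighbour gene called. With DESeq2 769 were higher and 589 lower, with 1 other SOX gene and 2 neighbour genes called. Requiring a mean of 50 left 5 neural lineage genes called. Over the 4 fits that left out 1 library, in which a lone library is assumed to vary like the other group, the genes higher ranged from 668 to 2383 and those lower from 482 to 2246. The list counts ranged from 0 to 5 for other SOX genes, 0 to 5 for partner genes, 3 to 6 for SOX-POU target genes, 6 to 8 for neural lineage genes and 1 to 9 for neighbour genes. Upper-quartile scaling gave 1189 genes higher and 1244 lower, against 1209 and 1017. The cause of these shifts was not tested.

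A replicate block called 1733 genes higher and 1616 lower and 3 other SOX genes, the added call being SOX8. Same-numbered libraries showed a correlation of deviations of 0.047, and the labels give the number no meaning, so the samples share only a number.

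At this depth SOX1, SOX2-OT, SOX7, MAP2 and LHX5 rest on few reads, which limits their precision.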
